A study of Mus musculus with 12 samples.

Results

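The liver secretes most of the proteins that circulate as the complement and clotting systems, and 39 genes for such proteins were examined in bulk liver RNA from ageing mice. The 39 were chosen by symbol from the 55487 genes of the deposited tables, as liver-made factors of complement, coagulation and fibrinolysis, and each symbol matched 1 row. The libraries came from 12 male mice aged 16 to 18 months, with 3 mice in each of 4 groups: fasted KO, fed KO, fasted control and fed control. KO mice carried Foxo3 flox/flox alleles together with Alb-cre, a Cre recombinase driven by the albumin promoter and so active in hepatocytes, while other liver cells keep Foxo3. Control mice carried floxed Foxo3 without Cre. Every KO mouse and no control mouse carried Cre, so the presence of Cre and the loss of Foxo3 cannot be told apart. Fasted mice were fasted overnight, and all mice otherwise had food ad libitum.

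Complement is a cascade of serum proteases. The classical pathway works through C4 and C2, the lectin pathway through mannose-binding lectins and the MASP proteases, and the alternative pathway through factor B. All converge on cleavage of C3 and then C5, after which C5b, C6, C7, C8 and C9 assemble into the membrane attack complex, a pore in the target membrane. Coagulation is a parallel cascade in which factors of the contact system and the vitamin K-dependent factors lead to thrombin, which turns fibrinogen into fibrin, and plasmin later dissolves the clot. Hepatocytes make nearly all of these proteins, and several of them, fibrinogen and C3 among them, are acute phase proteins that the liver makes in larger amounts during inflammation. In mice, serum levels of the terminal complement components are known to be lower in females than in males.

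Totals ranged from 17520058 to 22414976 counts per library, and 15862 genes, all 39 among them, had enough counts to be tested. The lowest count of any of the 39 genes in a library was 32, for Cfb, and the highest was 239692, for C3. The 7 hepatocyte markers summed to 69852.9 to 117497.0 TPM (read counts scaled by gene length and library total) in the 12 livers. Foxo3 was not lower in the libraries labelled KO, at 15.6, 17.5 and 16.6 TPM in fasted and 18.5, 19.5 and 20.2 TPM in fed KO livers, against 15.1, 11.9 and 12.8 TPM in fasted and 14.4, 13.6 and 19.2 TPM in fed control livers. Which exons were floxed is not stated in the labels, so a value for the whole gene does not check the genotype. Some livers stood apart from the rest of their group. Fed KO replicate 1 held 2002.9 TPM of Saa1, a serum amyloid acute phase gene, against at most 325.5 TPM in the other 11 livers. Fed control replicate 3 held 36.2 TPM of the collagen gene Col1a1 against at most 6.63 TPM elsewhere, and its median tested gene lay 0.24 above that gene's mean over all livers on the log2 TPM scale. Fasted control replicate 3 held 2638.7 TPM of the antibody gene Igkc, against at most 347.6 TPM elsewhere. Where a log2 difference of at least 0.4 between fed KO and fed control livers is given, its value without the first and second of these livers is given in the same paragraph or where the gene is described. In bulk tissue, fewer cells of a type and less RNA per cell cannot be told apart.

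The 39 genes together summed to 22517.5 to 43625.7 TPM per liver. Fed KO replicate 1 had the highest sum and fed control replicate 3 the lowest. C3, the hub of all complement pathways, was the most abundant at a mean of 4006 TPM over the 12 livers and ranked 30 among all genes. It was followed by the fibrinogen chains Fgg (3390 TPM) and Fga (3053 TPM), by Vtn (2502 TPM), which encodes vitronectin, an inhibitor of the membrane attack complex, and by the fibrinogen chain Fgb (2490 TPM). Plg, the precursor of plasmin, averaged 1645 TPM. The lowest were Masp1 at 46.6 TPM, C2 at 21.4 TPM and Cfb, which encodes factor B, at 2.04 TPM. The levels of Cfb and C2 are uncertain, because 79.5% of the exonic bases of Cfb and 42.8% of those of C2 are shared with Gm20547, a gene annotated across both that was listed at 0 counts in every library. Klkb1, the gene for plasma prekallikrein, shares 43.2% of its exonic bases with Gm45753. The labels do not say how reads falling in more than 1 gene were counted. C4b has a near-identical copy, C4a, at 3.65 to 56.6 TPM against 452.9 to 1175.7 TPM for C4b, and Kng1 and Kng2 are also close copies, so reads may have been divided between them.

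The genes differed widely in how much they varied between livers. Serpinc1, the gene for antithrombin, spanned a 1.17-fold range over the 12 livers (476.4 to 556.4 TPM), F13b, the carrier subunit of the fibrin-linking factor XIII, a 1.19-fold range (192.4 to 229.0 TPM), and F2, which encodes prothrombin, a 1.23-fold range (830.8 to 1025.8 TPM). C6 spanned an 8.27-fold range, C8b 7.96-fold, C8a 5.58-fold and C9 5.42-fold. The 3 steadiest genes were thus clotting factors and an inhibitor, and the 4 most variable were components of the membrane attack complex.

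**Figure D1:**
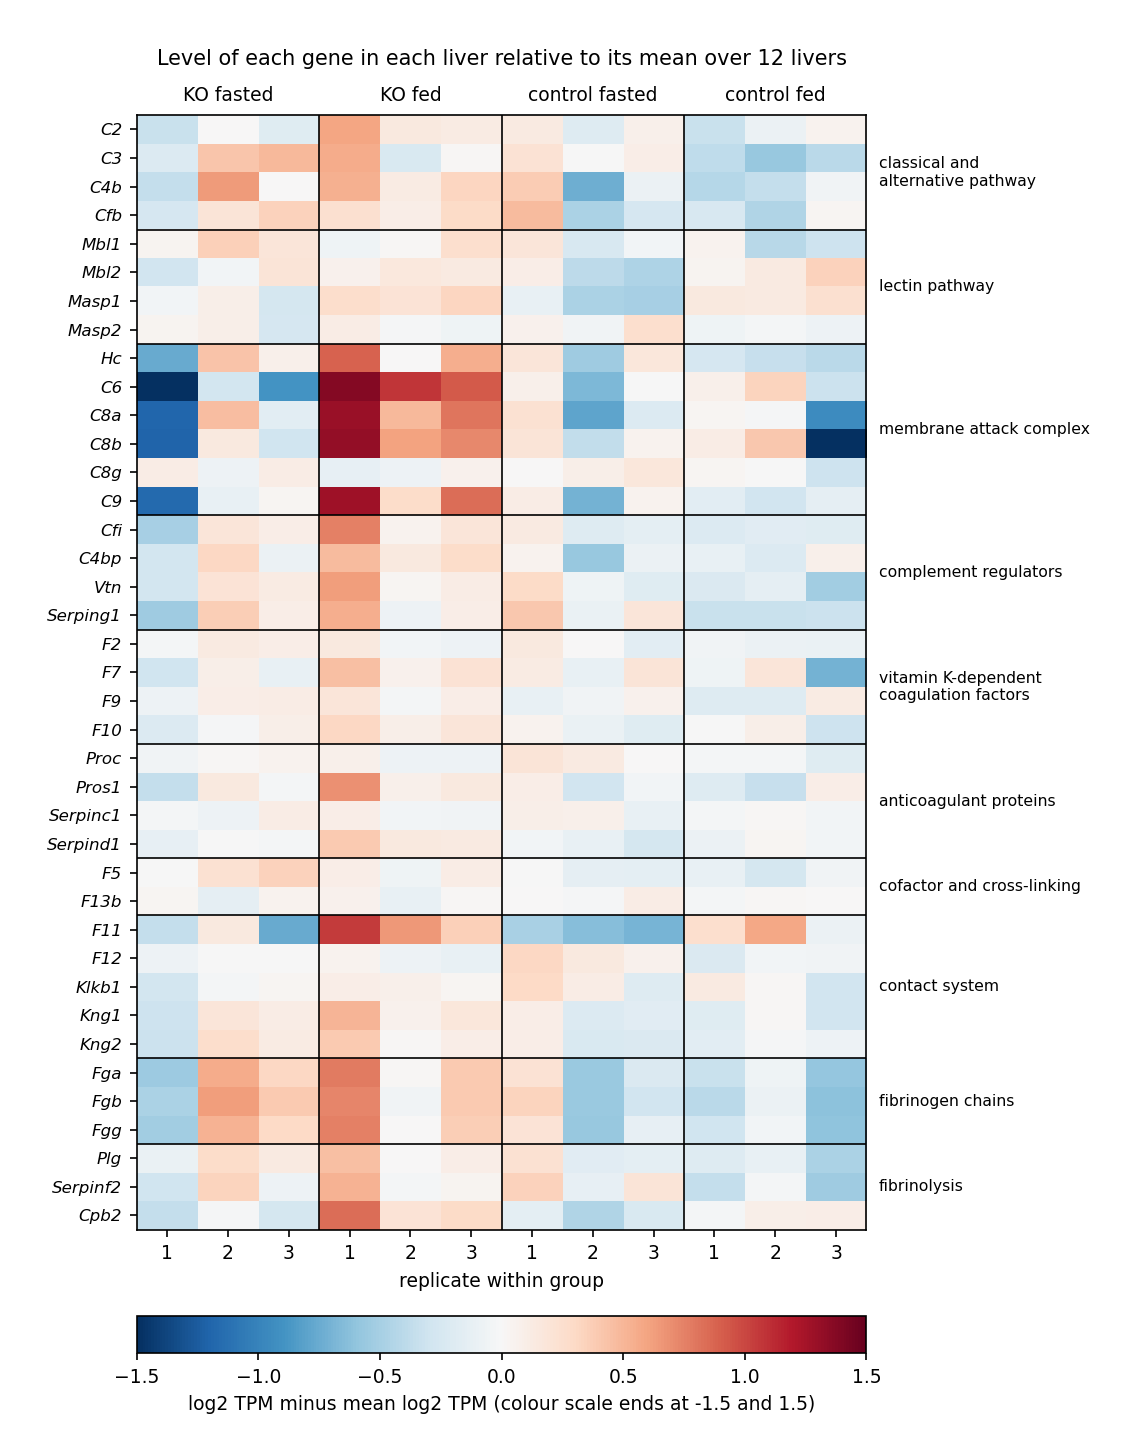
Level of each of the 39 genes (rows, grouped by role) in each liver (columns, 3 replicates per group), as log2 TPM minus the gene's mean log2 TPM over 12 livers, with red above and blue below the mean. Fed KO replicate 1 was the highest liver for 26 of the 39 genes and fed control replicate 3 the lowest for 12, and the strongest colours lie in the rows of the membrane attack complex.

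Fasting lowered 4 of the 39 transcripts when the genotypes were averaged, and raised none. They were C6, F11, Cpb2 and Masp1, between 1.34-fold and 2.15-fold lower in fasted livers. This was 10.3% of the genes, while 9.07% of all tested genes passed in either direction and 4.52% passed as lower, so 4 genes are too few to read as particular to this set. The threshold was an adjusted p of 0.05 by the quasi-likelihood F test of edgeR, fitted and adjusted over all tested genes. Within KO livers 1 of 39 passed as lower (2.56%, against 2.48% of all genes in either direction and 1.12% lower). Within control livers it was likewise 1 of 39 (2.56%, against 4.14% and 2.09%), so both counts lay near the background.

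C6, a component of the membrane attack complex (ENSMUSG00000022181, chr15:4727175-4814967 in build mm10), stood at 24.9, 65.3 and 42.5 TPM in fasted KO livers, against 206.2, 166.1 and 149.7 TPM in fed KO livers. It stood at 83.4, 49.8 and 78.8 TPM in fasted control livers, against 83.2, 99.6 and 63.4 TPM in fed control livers. The fasted and fed KO livers did not overlap, and the fasted and fed control livers did. In KO livers C6 fell by 1.99 on the log2 scale (SE 0.35, adjusted p = 0.02), a 3.96-fold difference. It fell by 1.11 averaged over genotypes (SE 0.24, adjusted p = 0.019). The KO value lost its call without fasted KO replicate 3 (adjusted p = 0.079), fed KO replicate 1 (0.086) or fed KO replicate 2 (0.051). It also lost its call without both fed KO replicate 1 and fed control replicate 3 (0.061), with no filter on low counts (0.058) and with only KO livers in the fit (0.061). The log2 value in KO livers stayed between -1.68 and -2.36. The average lost its call without fasted control replicate 2 (adjusted p = 0.052) and with no filter (0.064). The difference between the genotypes' fasting responses was -1.76 (SE 0.49, adjusted p = 0.55) and did not pass, although DESeq2 called it. The 14 male-biased liver genes listed summed to 5949.8 to 10400.1 TPM in fasted KO livers, against 19599.2 to 27814.7 TPM in fed KO livers. All 14 had log2 values below 0 and 2 were called lower (14.3%). Of all tested genes between fasted and fed KO livers, 49.2% lay above 0, 1.12% were called lower and 2.48% in either direction. The 13 female-biased genes summed to 1028.4 to 2216.6 TPM in fasted KO livers, against 55.9 to 181.3 TPM in fed KO livers, with 10 of the 11 tested above 0 and 3 called higher. The 18 acute phase genes summed to 11557.5 to 28077.3 TPM in fasted KO livers, against 21915.3 to 40563.2 TPM in fed KO livers, with 15 of 18 below 0 and none called. The part of these lists in the C6 result was not tested.

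F11 encodes clotting factor XI of the contact system (ENSMUSG00000031645, chr8:45241174-45262031). It stood at 37.8, 53.9 and 28.7 TPM in fasted KO livers against 100.7, 75.9 and 62.2 TPM in fed KO livers, and at 34.6, 31.1 and 29.9 TPM in fasted control livers against 57.8, 72.3 and 45.8 TPM in fed control livers. Fasted and fed livers did not overlap in either genotype. The mean change was a fall of 0.94 on the log2 scale (SE 0.20, adjusted p = 0.014), while the values within KO (-1.01, adjusted p = 0.10) and within control livers (-0.87, adjusted p = 0.12) missed the threshold alone. With no filter on low counts the mean gave an adjusted p of 0.054. The neighbouring Klkb1 lies 4657 bases away on the same strand, and the ratio of F11 to Klkb1 in TPM was 0.548 ± 0.17 in fasted and 0.961 ± 0.21 in fed KO livers, against 0.387 ± 0.042 in fasted and 0.763 ± 0.13 in fed control livers (SD, n = 3 each). Klkb1 shares 43.2% of its exonic bases with Gm45753, so its level is less certain.

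Cpb2 encodes the thrombin-activated carboxypeptidase that slows fibrin breakdown (ENSMUSG00000021999, chr14:75242287-75283555). Its levels were 315.8, 399.6 and 336.7 TPM in fasted KO livers against 724.8, 465.3 and 492.6 TPM in fed KO livers, and 364.8, 296.6 and 345.1 TPM in fasted control livers against 395.2, 429.9 and 434.3 TPM in fed control livers. The fasted livers lay below the fed livers in both genotypes with no overlap. The mean fall was 0.50 on the log2 scale (SE 0.12, adjusted p = 0.024). The values within KO (-0.70, adjusted p = 0.057) and within control livers (-0.30, adjusted p = 0.38) missed the threshold alone. The mean missed the threshold, with adjusted p-values of 0.051 to 0.062, without fasted KO replicate 1 or 3, fasted control replicate 2 or 3, or fed control replicate 2. Masp1, a protease of the lectin pathway (ENSMUSG00000022887, chr16:23449417-23520815), had 44.4, 48.6 and 38.1 TPM in fasted KO livers against 55.2, 52.9 and 57.3 TPM in fed KO livers, and 42.3, 32.8 and 32.5 TPM in fasted control livers against 50.6, 50.3 and 54.1 TPM in fed control livers. The groups were again separate in both genotypes. Masp1 fell by 0.50 on the log2 scale in control livers (SE 0.12, adjusted p = 0.035) and by 0.42 on average (SE 0.084, adjusted p = 0.0074). The average was called under all 20 alternatives run. The control value missed the threshold with only control livers in the fit (adjusted p = 0.12) and, at 0.051 to 0.13, without any one of fasted KO replicate 1, fed KO replicates 2 and 3, fasted control replicates 2 and 3, and fed control replicates 1 and 2.

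**Figure D2:**
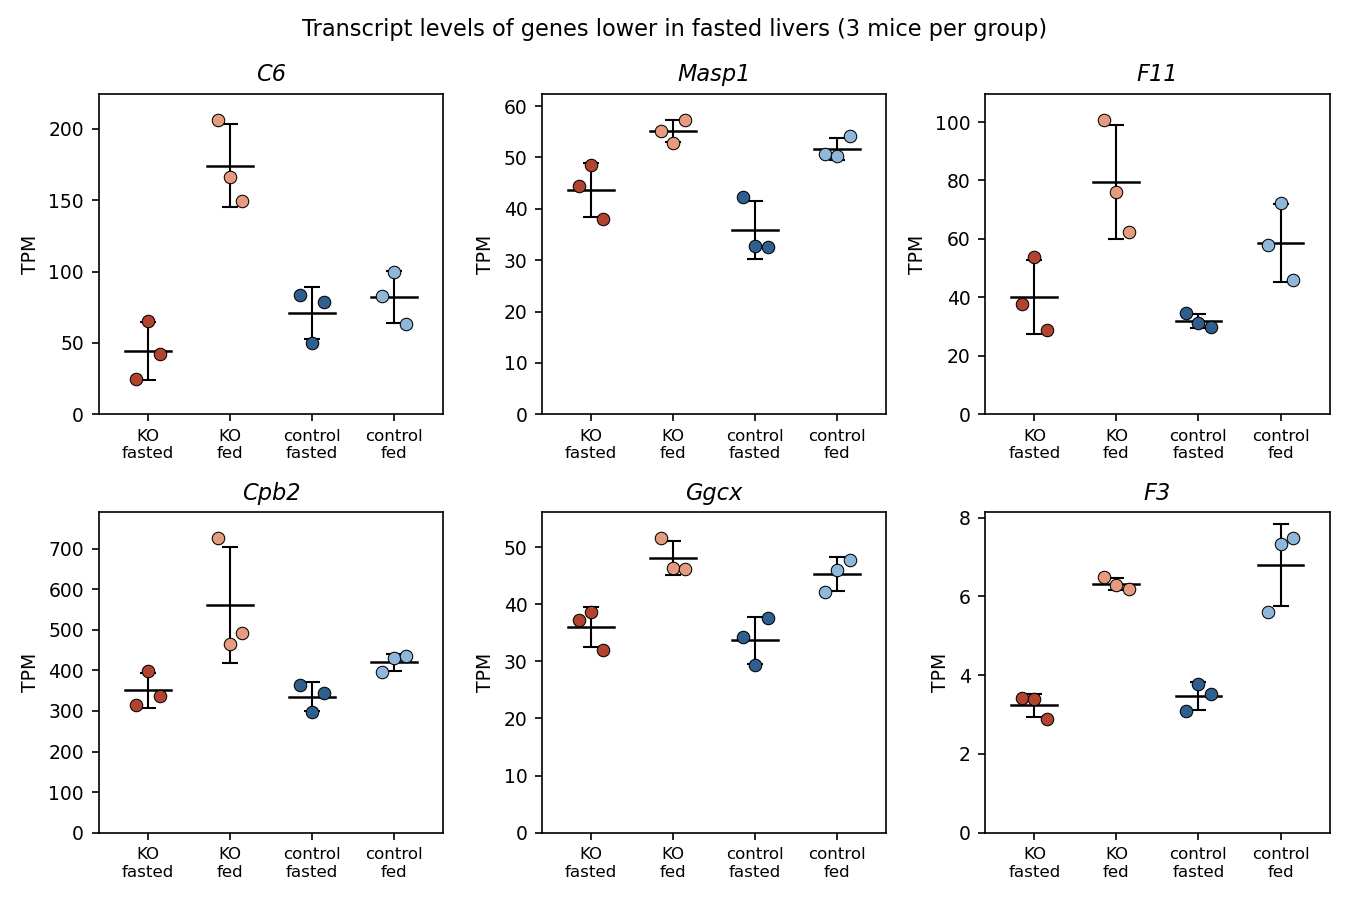
TPM of 6 genes in each liver (points), with group means (horizontal lines) and SD (bars), 3 mice per group and axes from 0. For F11, Cpb2, Masp1, Ggcx and F3 the fasted livers lie below the fed livers in both genotypes, and for C6 in KO livers only do they not overlap.

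The promoter windows of C6, F11 and Cpb2 are shown because these genes fell with fasting. Masp1, which also fell, had no window in the reference used. Each window runs from 250 bases before to 50 after the transcript start on the gene's strand, from RefSeq on GRCm38.p6. They lie at chr15:4726960-4727259 on the plus strand for C6, chr8:45261982-45262281 on the minus strand for F11 and chr14:75242037-75242336 on the plus strand for Cpb2. Capitals mark matches, on either strand, to 5 motifs of liver and acute phase regulators.
C6: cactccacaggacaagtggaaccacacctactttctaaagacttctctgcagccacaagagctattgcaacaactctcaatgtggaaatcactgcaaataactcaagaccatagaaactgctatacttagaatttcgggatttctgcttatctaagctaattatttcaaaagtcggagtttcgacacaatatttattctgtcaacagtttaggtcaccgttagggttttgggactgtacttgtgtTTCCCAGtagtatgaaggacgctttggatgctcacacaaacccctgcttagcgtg
F11: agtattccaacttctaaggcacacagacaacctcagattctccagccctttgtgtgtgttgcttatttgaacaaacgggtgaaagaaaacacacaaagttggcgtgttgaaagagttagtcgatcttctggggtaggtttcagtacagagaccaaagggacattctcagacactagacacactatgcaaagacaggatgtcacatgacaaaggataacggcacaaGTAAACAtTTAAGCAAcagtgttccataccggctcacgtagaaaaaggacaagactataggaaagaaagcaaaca
Cpb2: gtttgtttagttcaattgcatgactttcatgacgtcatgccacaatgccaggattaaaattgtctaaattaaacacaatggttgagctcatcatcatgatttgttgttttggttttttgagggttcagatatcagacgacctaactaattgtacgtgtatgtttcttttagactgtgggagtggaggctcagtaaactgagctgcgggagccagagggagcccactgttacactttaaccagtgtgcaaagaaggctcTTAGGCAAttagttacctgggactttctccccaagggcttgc
The motifs searched were TGTTTAC for forkhead factors, the class that includes FOXO3, CTGGGAA for the interleukin-6 response element, TTCNNNGAA for STAT factors, TTGCNNAA for C/EBP factors and GTTAAT for HNF1. In C6 the 1 match is to the interleukin-6 element, across the transcript start. F11 holds a forkhead match at positions -25 to -19 and a C/EBP match at -17 to -10, and Cpb2 holds a C/EBP match at 9 to 16, counted from the start. No 2 matches in the windows shown overlap. Of the 39 genes, 30 had a window. The forkhead letters were in 2 of the 30 (F11 and Klkb1; 6.67%, against 3.65% of 32851 windows of all genes), the interleukin-6 element in 7 (23.3%, against 11.1%) and the STAT letters in 7 (23.3%, against 8.3%). The C/EBP letters were in 10 (33.3%, against 10.8%) and the HNF1 letters in 9 (30.0%, against 7.1%). The shares of the 30 count genes, with a match in any window of the gene, and those of all genes count windows, so the units differ. These are matches of letters, with no measure of binding.

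Of the other 35 genes none passed the threshold for fasting by edgeR. In KO livers C8b (-1.27, adjusted p = 0.32), C9 (-1.19, 0.10) and C8a (-1.06, 0.31) also lay lower, and DESeq2 called C9. With C6, 4 of the 6 listed genes of the membrane attack complex (66.7%) had no overlap, against 10.9% of all tested genes. Hc (-0.54) and C8g (0.08) overlapped. The median correlation of the 6 within groups was 0.72, so they are not separate observations. In KO livers, 7 of 39 log2 values lay above 0 and 32 below, where 49.2% of all tested genes lay above 0. Their median was -0.20, against -0.0059 for all tested genes, and 11 of 39 (28.2%) had fasted livers all below fed livers, against 10.9% of all genes. The median was -0.05 without fed KO replicate 1, and likewise without fasted KO replicate 1. Without fed KO replicate 1 the genes with no overlap were again 11 of 39 (28.2%), against 17.6% of all genes. Of the 7 hepatocyte markers, 6 lay below 0 in the same comparison, with a median of -0.39 and none called. For 3 of the markers all fasted livers were below all fed livers, and for 1 all were above. The marker sum was 82924.1 to 97815.1 TPM in fasted KO livers against 89475.3 to 106945.4 TPM in fed KO livers. The median of the acute phase genes was -0.58 and that of the female-biased genes 2.93. The part of these in the result was not tested. In control livers the balance was the other way, with 32 of 39 above 0, against 49.5% of all genes, and a median of 0.14. The median was 0.06 without fasted control replicate 1 and 0.01 without fed control replicate 3. C3 had 4499.6, 3862.7 and 4149.0 TPM in fasted control livers against 2992.6, 2618.5 and 2934.3 TPM in fed control livers. These did not overlap, and the log2 difference of 0.58 (SE 0.24, adjusted p = 0.21) did not pass. In TPM 4 of the 39 genes (10.3%) had all fasted control livers above all fed control livers, near the 8.95% of all genes.

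Other genes of the pathways were taken from lists of 23 complement genes and 23 coagulation and fibrinolysis genes, of which 23 and 21 were tested. Averaged over genotypes, 1 of the complement genes (4.35%) and 3 of the coagulation genes (14.3%) fell with fasting and none rose, where 4.52% of all tested genes were called lower. The complement count lay at that background. Ggcx, the carboxylase that makes the vitamin K-dependent factors able to bind calcium, had 37.2, 38.7 and 32.0 TPM in fasted KO livers against 51.5, 46.4 and 46.2 TPM in fed KO livers, and 34.2, 29.3 and 37.5 TPM in fasted control livers against 42.1, 46.0 and 47.8 TPM in fed control livers. It fell by 0.42 on the log2 scale on average (SE 0.073, adjusted p = 0.0037). Within a single genotype its call was lost under most alternatives. F3, which encodes tissue factor, the trigger of clotting, had 3.43, 3.39 and 2.90 TPM in fasted KO livers against 6.48, 6.30 and 6.18 TPM in fed KO livers, and 3.09, 3.78 and 3.53 TPM in fasted control livers against 5.61, 7.33 and 7.47 TPM in fed control livers. It fell by 0.98 in KO livers (SE 0.18, adjusted p = 0.016) and by 0.93 in control livers (SE 0.18, adjusted p = 0.013), and fasted and fed livers did not overlap in either. The KO value of F3 lost its call without fasted KO replicate 1 (adjusted p = 0.055), fasted KO replicate 3 (0.06) or fed KO replicate 1 (0.078). It also lost its call without both fed KO replicate 1 and fed control replicate 3 (0.063). The control value lost its call without fed control replicate 2 (0.054) and with only control livers in the fit (0.073), and the average under no alternative. Lman1, the cargo receptor that exports factors V and VIII from the endoplasmic reticulum, had 52.4 to 60.0 TPM in the 6 fasted livers and 69.5 to 76.7 TPM in the 6 fed livers. It fell by 0.38 on average (SE 0.081, adjusted p = 0.011). Cfd, factor D, which is made mainly by fat cells, fell by 2.22 on average (SE 0.56, adjusted p = 0.038) and lost its call under 11 of 20 alternatives, 8 of them a single library left out (fasted KO 1 or 3, fed KO 2 or 3, fasted control 2 or 3, fed control 1 or 2; adjusted p of 0.063 to 0.087). The vitamin K-dependent factors themselves, F2, F7, F9 and F10, did not pass the threshold for fasting in either genotype.

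Among 26 regulators of liver transcription, 8 rose and 2 fell with fasting on average, which is 38.5% of the list, against 9.07% of all tested genes called in either direction. The list was chosen with earlier results of these data known, and several of its calls were unstable. Cebpd and Foxo1 each lost the average call under 14 of 20 alternatives, Rxra under 11, Foxa3 under 6 and Cux2 under 2 of 18. Il6ra, Cebpb, Nfkbia and Nr3c1 lost it under none. Il6ra, a chain of the interleukin-6 receptor, had 11.5 to 27.3 TPM in fasted KO livers against 10.9 to 14.8 TPM in fed KO livers, which overlap. It had 24.3, 27.9 and 34.3 TPM in fasted control livers against 9.30, 8.95 and 6.60 TPM in fed control livers, which do not. It rose by 1.23 on the log2 scale on average (SE 0.22, adjusted p = 0.0076) and by 1.81 in control livers (SE 0.32, adjusted p = 0.013; 0.05 without fasted control replicate 2 and 0.052 without replicate 3). Cebpb, a C/EBP factor of the acute phase response, rose by 0.55 on average (SE 0.11, adjusted p = 0.0086). Nfkbia, an inhibitor of NF-kappaB, rose by 0.60 (SE 0.08, adjusted p = 0.00062). Onecut1, a hepatocyte factor, fell by 1.71 (SE 0.39, adjusted p = 0.023), a call lost under 9 of 20 alternatives, 7 of them a single library left out (fasted KO 2 or 3, fed KO 2 or 3, fasted control 2 or 3, fed control 2; adjusted p of 0.053 to 0.065). Of 18 acute phase genes, Lbp, which encodes lipopolysaccharide-binding protein, rose by 0.88 on average (SE 0.15, adjusted p = 0.004) and the other 17 did not pass.

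Between genotypes none of the 39 genes passed the threshold by edgeR, in fasted livers (0.0315% of all genes did), in fed livers (0.0%) or averaged over both (0.0126%). At an unadjusted p of 0.05 there were 1 gene in fasted livers, 19 in fed livers and 11 on average, all with the higher level in KO, where 4.65%, 2.98% and 4.24% of all genes were higher at that p. DESeq2 called C6 and C9 in fed livers and none of the 39 in the other genotype comparisons. In fed livers 38 of 39 log2 values were above 0, the exception being Mbl2 at -0.01, where 48.0% of all genes lay above 0. The median was 0.47, against -0.01 for all tested genes. For 23 of 39 genes (59.0%) all 3 fed KO livers were above all 3 fed control livers in TPM, against 4.41% of all tested genes. These genes varied together between livers of the same group, so the counts are not 39 separate observations. With CPM scaled by TMM factors in place of TPM, 17 of 39 (43.6%) had no overlap, against 6.3% of all genes.

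The fed result leaned on single livers. Without fed KO replicate 1 the median was 0.28, without fed control replicate 3 it was 0.29, and without both it was 0.13 with 28 of 39 values above 0. In TPM, without both, 28 of 39 genes (71.8%) still had the remaining fed KO livers above the remaining fed control livers, against 30.0% of all genes at 2 livers a group. On TMM-scaled CPM, 17 (43.6%) were all higher and 7 (17.9%) all lower, against 19.3% and 18.6% of all genes. Other measures moved with the same groups. The 18 acute phase genes summed to 21915.3 to 40563.2 TPM in fed KO livers against 12461.5 to 15241.1 TPM in fed control livers, and all 18 had log2 values above 0, with none called. The 14 male-biased genes, again all above 0 and none called, summed to 19599.2 to 27814.7 TPM in fed KO livers against 5728.7 to 17887.4 TPM in fed control livers. The 13 female-biased genes, 9 of the 11 tested below 0, summed to 55.9 to 181.3 TPM in fed KO livers against 252.1 to 802.7 TPM in fed control livers. The 6 stellate cell markers, all below 0, summed to 67.2 to 112.8 TPM against 106.6 to 277.0 TPM, and the 9 Kupffer cell markers to 472.7 to 859.0 TPM against 456.9 to 1072.9 TPM, in fed KO and fed control livers. The 7 hepatocyte markers summed to 89475.3 to 106945.4 TPM in fed KO livers, against 83228.0 to 117497.0 TPM in fed control livers. The part of these in the result was not tested.

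**Figure D3:**
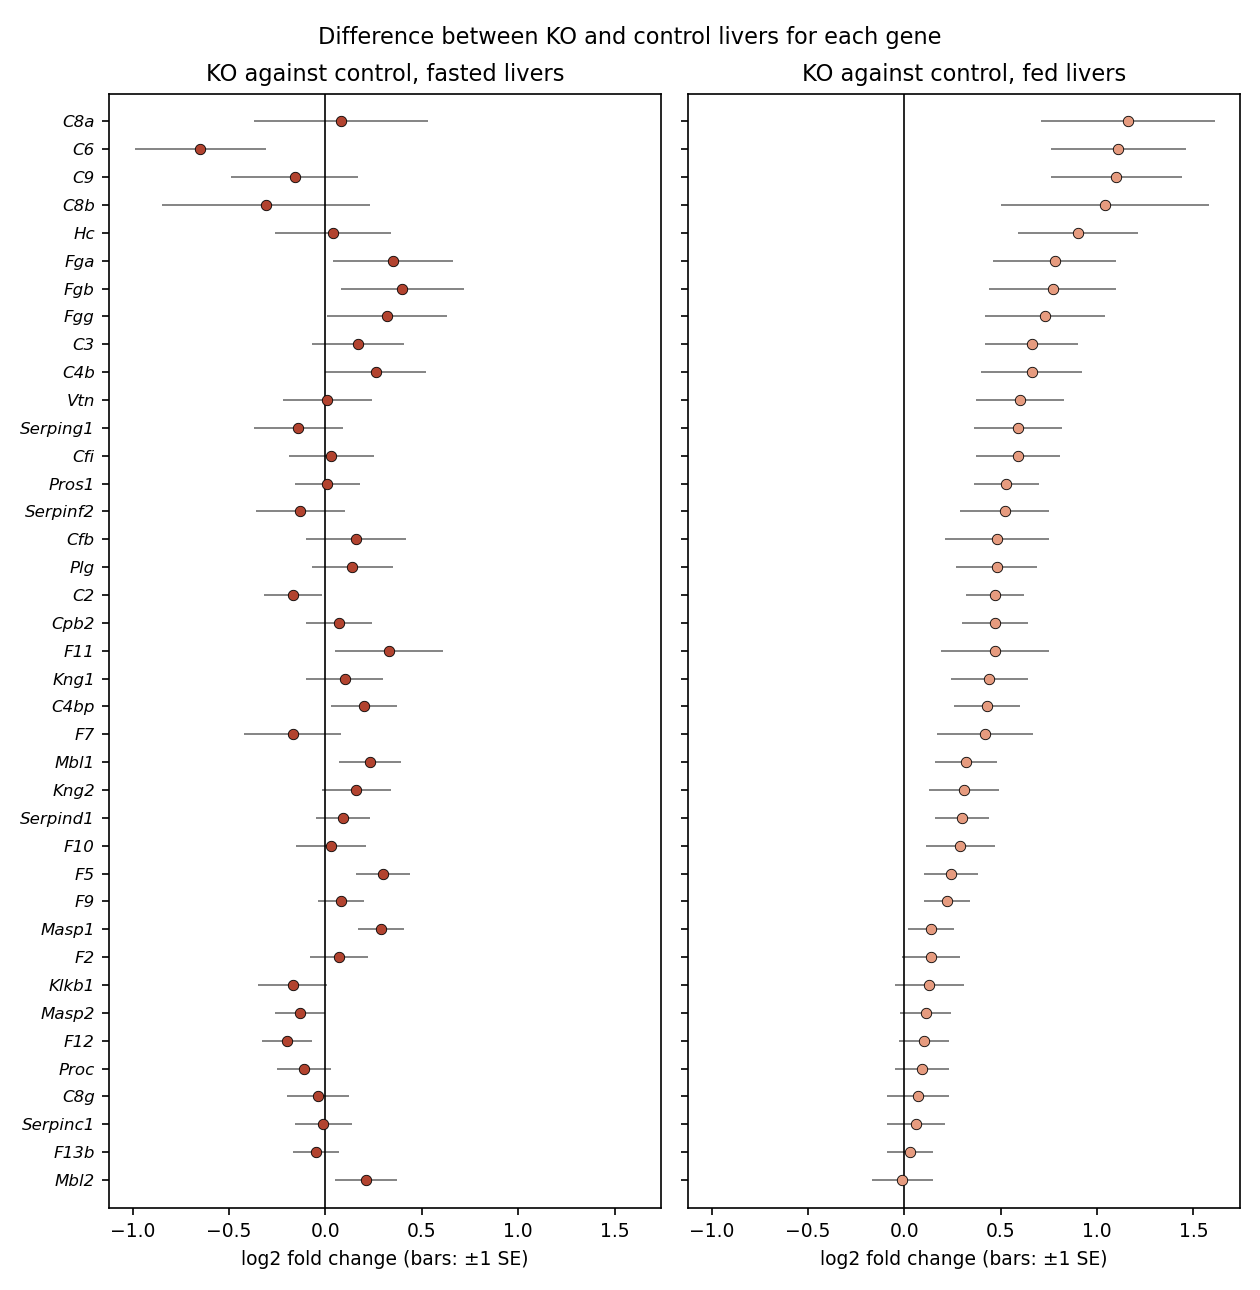
Log2 fold change between KO and control livers of each gene in fasted livers (left) and fed livers (right), as edgeR estimates with bars of 1 SE, ordered by the fed value. In fed livers 38 of 39 points lie right of 0 and none passed the adjusted threshold, and in fasted livers 25 lie right of 0 and 14 left.

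Components of the membrane attack complex had the widest fed difference. C9, the pore-forming unit, had 838.1, 418.9 and 617.0 TPM in fed KO livers against 309.6, 282.9 and 314.3 TPM in fed control livers, with no overlap and a log2 difference of 1.10 (SE 0.34, adjusted p = 0.78). C6 differed by 1.11 (SE 0.35, adjusted p = 0.79), with the values given above. C8a, the alpha chain of C8, had 944.2, 540.3 and 674.3 TPM in fed KO livers against 393.8, 382.4 and 200.3 TPM in fed control livers, a difference of 1.16 (SE 0.45, adjusted p = 0.81). C8b, the beta chain, had 405.6, 246.5 and 267.7 TPM in fed KO livers against 176.1, 215.4 and 50.9 TPM in fed control livers. The low fed control value of C8b is replicate 3, the liver that stood apart, and the log2 difference of 1.04 (SE 0.54, adjusted p = 0.82) was 0.59 without it and 0.30 without it and fed KO replicate 1. Hc, the mouse gene for C5, had 661.0, 360.9 and 523.8 TPM against 301.5, 283.5 and 272.0 TPM in fed KO and fed control livers, a difference of 0.90 (SE 0.31, adjusted p = 0.81). In each of these 5 genes, of the 6 listed for the complex, every fed KO liver was above every fed control liver in TPM. Of all tested genes, 4.41% had this, and C8g, described below, did not. The values without both libraries were 0.70 for C6, 0.72 for C9, 0.56 for C8a and 0.51 for Hc.

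C8g, which encodes the gamma chain of C8, did not share this pattern in level. It ranged only from 386.7 to 537.7 TPM over all 12 livers, and its groups overlapped. The ratio of C8a to C8g was 0.725 ± 0.43 in fasted and 1.56 ± 0.52 in fed KO livers, against 0.667 ± 0.25 in fasted and 0.708 ± 0.16 in fed control livers (SD, n = 3 each), and it ran from 0.326 to 2.15 over the livers. The ratio of C8a to C8b, which are neighbours on chromosome 4, ran from 1.77 to 3.93. C7, the remaining component and not among the 39 genes, was at 0.622 to 2.93 TPM in the 12 livers. It was named after its values were seen.

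**Figure D4:**
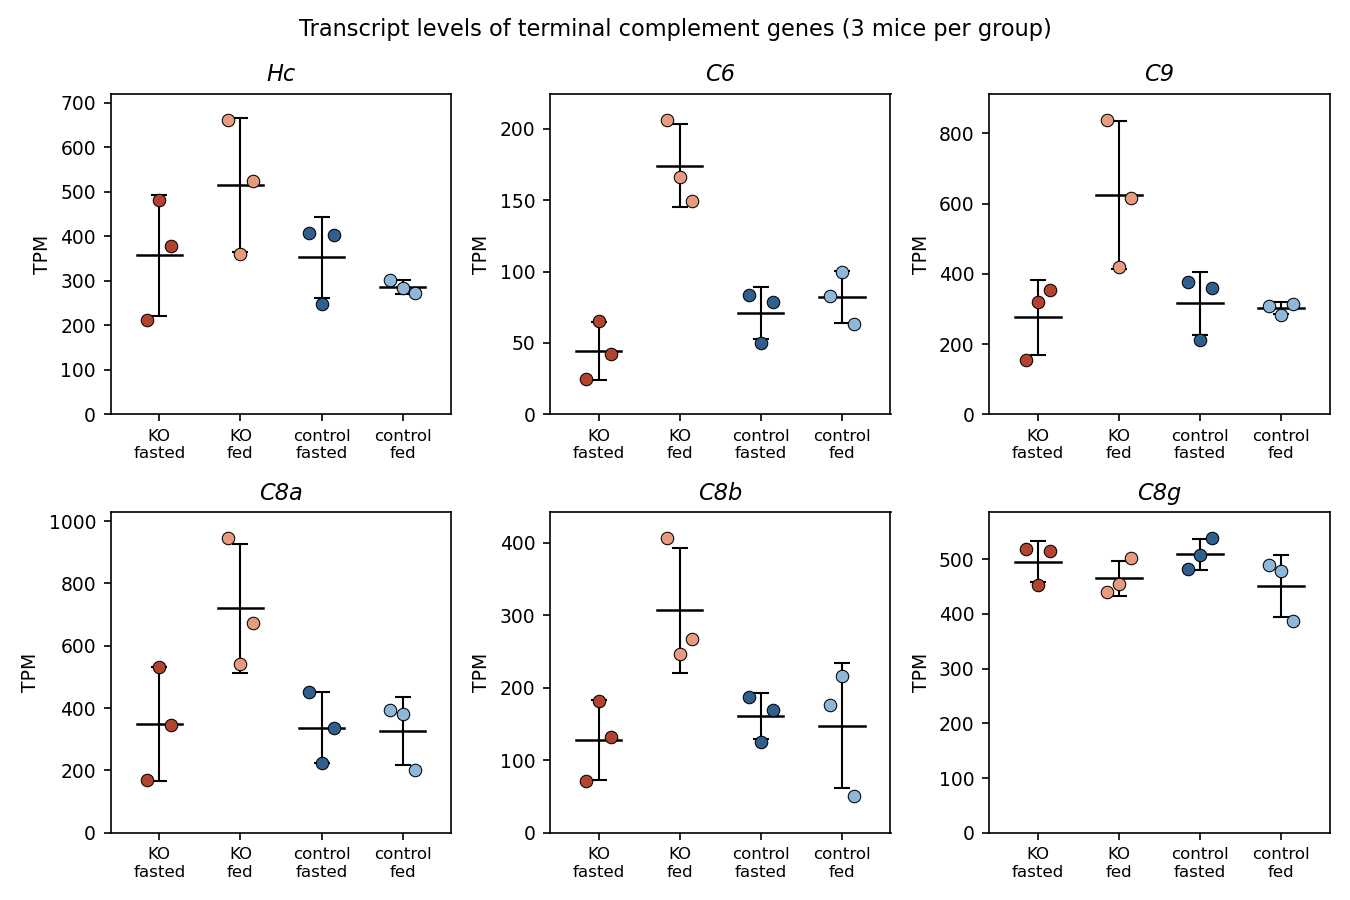
TPM of 6 genes of the membrane attack complex in each liver (points), with group means (lines) and SD (bars), 3 mice per group and axes from 0. Fed KO livers lie above fed control livers for Hc, C6, C9, C8a and C8b, while C8g is level across the groups.

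Early complement genes also lay higher in fed KO livers. C3 had 5735.3, 3327.4 and 3940.9 TPM in fed KO livers against 2992.6, 2618.5 and 2934.3 TPM in fed control livers, with no overlap (log2 difference 0.66, SE 0.24, adjusted p = 0.81). C4b had 1090.9, 818.0 and 943.9 TPM in fed KO livers against 560.4, 587.2 and 729.3 TPM in fed control livers (0.66, SE 0.26, adjusted p = 0.81). C2, the protease that pairs with C4, had 31.9, 23.3 and 22.9 TPM against 16.7, 19.9 and 21.9 TPM in fed KO and fed control livers (0.47, SE 0.15, adjusted p = 0.78). Without fed KO replicate 1 the differences were 0.37 for C3 and 0.27 for C2, and without both livers that stood apart they were 0.29 for C3, 0.53 for C4b and 0.25 for C2. These genes and Cfb had no overlap in TPM, where 4.41% of all genes had none with KO higher. The levels of C2 and Cfb are uncertain, and the fed groups of C2 were apart by a narrow margin, 22.9 against 21.9 TPM. The 4 lectin pathway genes overlapped, and whether the pathways differ was not tested. Mbl1 and Mbl2 encode the mannose-binding lectins, with 197.6 to 245.2 and 580.0 to 620.2 TPM in fed KO livers, against 154.1 to 213.4 and 573.9 to 708.3 TPM in fed control livers. Masp1 and Masp2 overlapped likewise between the genotypes in fed livers.

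The 4 complement regulators all had fed KO livers above fed control livers in TPM, against 4.41% of all tested genes. Their median correlation within groups was 0.83, so they are not 4 separate observations. Cfi, the protease that inactivates C3b and C4b, had 1106.0, 679.8 and 747.7 TPM in fed KO livers against 570.7, 582.8 and 582.3 TPM in fed control livers (log2 difference 0.59, SE 0.22, adjusted p = 0.81). Serping1, the C1 inhibitor, which also inhibits kallikrein, had 1230.2, 803.7 and 901.7 TPM against 671.7, 669.6 and 675.9 TPM in fed KO and fed control livers (0.59, SE 0.23, adjusted p = 0.81). Vtn differed by 0.60 and C4bp, which encodes the C4b-binding protein, by 0.43, with smaller fed control values in every liver. Without fed KO replicate 1 the differences were 0.32 for Cfi, 0.36 for Serping1 and 0.36 for Vtn. Without both livers that stood apart they were 0.22 for Cfi, 0.26 for Serping1, 0.16 for Vtn and 0.29 for C4bp. The difference for Vtn was 0.40 without fed control replicate 3 alone.

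The fibrinogen chains varied together. Fga, Fgb and Fgg encode the alpha, beta and gamma chains of fibrinogen and lie side by side on chromosome 3, with gaps of 11026 bases between Fgg and Fga and 6513 bases between Fga and Fgb. Fga had 5013.1, 2953.6 and 3838.2 TPM in fed KO livers against 2310.3, 2787.9 and 1943.1 TPM in fed control livers, and 1993.4, 4291.2 and 3619.6 TPM in fasted KO livers against 3394.3, 1983.3 and 2507.0 TPM in fasted control livers. In TPM the fed livers did not overlap between genotypes, where 4.41% of all tested genes had none with KO higher, and the fasted livers did. The closest fed livers had 2953.6 TPM in KO and 2787.9 TPM in control, and on TMM-scaled CPM the fed livers overlapped for all 3 chains. The fed log2 differences were 0.78 for Fga (SE 0.32), 0.77 for Fgb (SE 0.33) and 0.73 for Fgg (SE 0.31), each with an adjusted p of 0.81. Without the 2 livers named above they were 0.33, 0.34 and 0.28. Although Fga spanned a 2.58-fold range over the livers, the ratio of Fga to Fgg stayed between 0.839 and 0.919 and that of Fgb to Fgg between 0.651 and 0.796. The correlation of log2 TPM deviations from the group means was 0.98 to 1.0 for the 3 pairs of chains over 12 livers. Over the 741 pairs of the 39 genes its median was 0.52. After the other chains, the genes most like Fgg by this measure were C8a at 0.96, Kng1 at 0.95, and Hc, Serping1 and Serpinf2 at 0.92. All points share the same livers and depths, so these values are descriptions. The ratio of Fgb to Fgg was 0.772 ± 0.012 in fasted KO livers and 0.720 ± 0.017 in fed KO livers, against 0.727 ± 0.073 in fasted and 0.704 ± 0.023 in fed control livers (SD, n = 3 each).

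**Figure D5:**
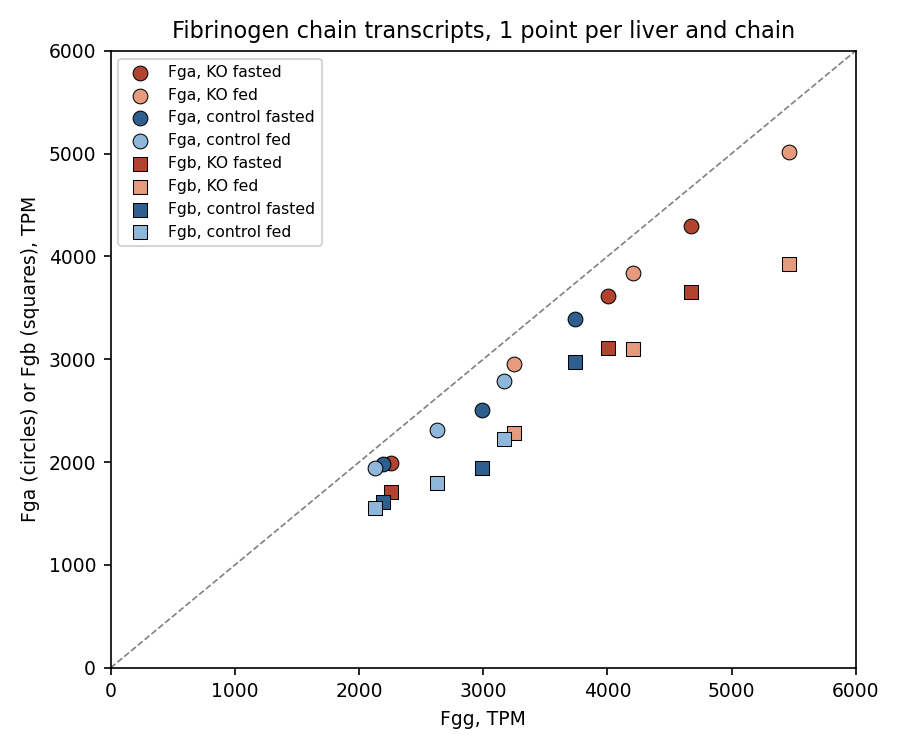
TPM of Fga (circles) and Fgb (squares) against TPM of Fgg, with 1 point per liver and chain, colours for the 4 groups and a dashed line of equal level. Both chains follow Fgg along straight bands just below the line, from fed control replicate 3 at the low end to fed KO replicate 1 at the high end.

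The promoter windows of the chains are shown because the genes varied together, so that their letters can be compared. From RefSeq on GRCm38.p6 they are chr3:83025903-83026202 on the plus strand for Fga, chr3:83049814-83050113 on the minus strand for Fgb and chr3:83007474-83007773 on the plus strand for Fgg. Capitals mark matches to the same 5 motifs.
Fga: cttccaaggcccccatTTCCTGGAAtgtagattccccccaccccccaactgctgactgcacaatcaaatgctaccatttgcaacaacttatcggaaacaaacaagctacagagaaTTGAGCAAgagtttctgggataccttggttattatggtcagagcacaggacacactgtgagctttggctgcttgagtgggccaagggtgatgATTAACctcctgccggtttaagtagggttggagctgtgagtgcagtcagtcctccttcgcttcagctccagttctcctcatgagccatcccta
Fgb: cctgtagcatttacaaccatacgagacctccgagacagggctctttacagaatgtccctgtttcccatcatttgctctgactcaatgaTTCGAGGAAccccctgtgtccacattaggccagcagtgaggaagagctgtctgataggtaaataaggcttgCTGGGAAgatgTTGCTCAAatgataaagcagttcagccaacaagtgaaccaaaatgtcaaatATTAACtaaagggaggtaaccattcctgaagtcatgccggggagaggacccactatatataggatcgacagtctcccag
Fgg: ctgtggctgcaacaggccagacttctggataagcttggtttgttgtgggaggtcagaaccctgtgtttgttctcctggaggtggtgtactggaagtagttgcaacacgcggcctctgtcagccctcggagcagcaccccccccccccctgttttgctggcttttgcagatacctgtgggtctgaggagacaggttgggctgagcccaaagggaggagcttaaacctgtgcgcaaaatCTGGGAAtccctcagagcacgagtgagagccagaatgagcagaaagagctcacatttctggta
Fga holds a STAT match at -234 to -226, a C/EBP match at -135 to -128 and an HNF1 match at -43 to -38. Fgb holds an interleukin-6 element at -91 to -85, with a STAT match at -162 to -154, a C/EBP match at -80 to -73 and an HNF1 match at -29 to -24. Fgg holds an interleukin-6 element at -13 to -7. No motif was shared by all 3 windows. Fgb and Fgg are the chains with the interleukin-6 letters, and Fga and Fgb those with the STAT, C/EBP and HNF1 letters.

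The median fed log2 difference was 0.26 for the 4 vitamin K-dependent factors and 0.20 for the 4 anticoagulants. F10 had 427.8, 368.7 and 391.7 TPM in fed KO livers against 345.7, 367.6 and 278.6 TPM in fed control livers. These do not overlap in TPM, where 4.41% of all tested genes had no overlap with KO higher, and on TMM-scaled CPM they do. F2, F7 and F9 overlapped. Proc, the gene for protein C, Serpinc1 and Serpind1, which encodes heparin cofactor II, are anticoagulants, as is Pros1, the protein S gene. Proc and Serpinc1 had fed values of 386.5 to 430.5 and 496.5 to 548.5 TPM in KO livers, against 359.4 to 401.5 and 500.6 to 518.9 TPM in control livers. Serpind1 had 684.7 to 819.4 TPM in fed KO livers and 589.2 to 634.5 TPM in fed control livers, with no overlap. Pros1 had 80.0, 52.5 and 55.4 TPM in fed KO livers against 43.7, 39.3 and 53.6 TPM in fed control livers, with a log2 difference of 0.53 (SE 0.17, adjusted p = 0.79) that was 0.28 without fed KO replicate 1 and 0.29 without both livers that stood apart. F5, the cofactor that speeds thrombin formation, had 235.1 to 266.7 TPM in fed KO livers and 204.6 to 237.5 TPM in fed control livers.

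The contact system was uneven. Kng1 and Kng2, the kininogen genes that give rise to bradykinin, had 1567.0 to 2121.3 and 261.0 to 338.9 TPM in fed KO livers, against 1225.7 to 1511.7 and 231.5 to 255.0 TPM in fed control livers. Neither overlapped in TPM, where 4.41% of all tested genes had no overlap with KO higher, and on TMM-scaled CPM both overlapped. F12, which starts the contact pathway, had 500.8 to 560.6 TPM against 464.3 to 525.6 TPM, and Klkb1 had 80.1 to 84.4 TPM against 64.5 to 86.0 TPM, in fed KO and fed control livers. F11 overlapped, with a log2 difference of 0.47 (SE 0.28, adjusted p = 0.85) that was -0.01 without the 2 livers named above. In fibrinolysis all 3 genes had separate fed groups in TPM, against the same 4.41% of all tested genes. Plg had 2223.3, 1627.0 and 1743.1 TPM in fed KO livers against 1415.8, 1507.1 and 1170.9 TPM in fed control livers. Serpinf2, the gene for alpha-2-antiplasmin, which blocks plasmin, had 1043.4, 711.4 and 748.3 TPM against 567.5, 709.0 and 503.6 TPM, in fed KO and fed control livers. The fed groups of Serpinf2 were apart by a narrow margin, 711.4 against 709.0 TPM, and on TMM-scaled CPM they overlapped. Cpb2 differed by 0.47 (SE 0.17, adjusted p = 0.81), Plg by 0.48 and Serpinf2 by 0.52. Without both livers that stood apart the differences were 0.13 for Cpb2, 0.12 for Plg and 0.10 for Serpinf2. Leaving out fed KO replicate 1 alone gave 0.21 for Cpb2, 0.31 for Plg and 0.30 for Serpinf2, and leaving out fed control replicate 3 alone gave 0.29 for Plg and 0.33 for Serpinf2.

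In fasted livers the genotypes were close. Of the 39 genes, 25 were above 0 and 14 below, where 47.9% of all genes were above, with a median log2 difference of 0.07 against -0.013 for all genes. No gene had all KO livers above all control livers, against 6.37% of all genes, and 1 had all below (2.56%, against 6.31%). That gene was F12, with 512.7, 537.5 and 535.4 TPM in fasted KO livers against 668.3, 594.8 and 562.7 TPM in fasted control livers, and on TMM-scaled CPM its groups overlapped. The widest log2 difference was -0.65 for C6 (SE 0.34, adjusted p = 0.60). For the interaction, the difference between the genotypes' fasting responses, 0 of 39 genes passed by edgeR, against 0.0063% of all genes. There were 4 at an unadjusted p of 0.05, which were C6, C9, C2 and Serping1, and DESeq2 called C6. All 4 were below 0, where 3.34% of all genes were below 0 at that p. The log2 values lay above 0 for 3 of 39 genes and below 0 for 36, where 49.3% of all genes lay above 0, with a median of -0.34, against -0.0053 for all genes, and the median was -0.06 without fed KO replicate 1 and fed control replicate 3. The interaction shares its libraries with the 4 single comparisons, so its direction is not separate evidence.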

How the data were processed

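Poly(A) RNA of frozen liver was made into strand-specific libraries, per the labels' protocols. The submitters' processing notes name bcl2fastq 2.19, Trimmomatic 0.38, HISAT2 2.1.0, featureCounts 1.6.3, DESeq2 1.24.0 and build mm10, with no role or order. Neither the annotation release, the strand setting nor the treatment of reads that fit several places is stated. A deposited table holds raw counts per gene and another deposited table holds TPM over the same 55487 genes. The deposited TPM equal the counts over 1 fixed length per gene (largest relative deviation 1.2e-07), scaled to 1000000.

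Counts were tested with edgeR 4.0.16 in R 4.3.3 (filterByExpr, TMM factors of 0.923 to 1.12, robust quasi-likelihood F test, 2-sided, Benjamini-Hochberg over 15862 genes). All 12 libraries entered 1 fit with a mean per group, and 7 contrasts were tested. The filter removed 39625 genes and none of the 39. TPM gave the levels. SE is the log2 fold change over the square root of F. The replicates are biological per the series' design text. No label names a batch, so a batch that runs with the groups cannot be told apart from them. Alternatives were RLE factors, no filter, DESeq2 1.42.0, limma 3.58.1 with voom or on log2(TPM + 1) and log2(TPM + 0.1) after a filter of 0.5 TPM in 3 libraries, only the compared groups, a replicate block, and leaving out each library. Leaving out fed KO replicate 1 and fed control replicate 3 together, the TMM-scaled CPM for overlap and the medians under other settings were added after seeing the data. The test was tried on simulated data.

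The 39 genes, the related lists, the motifs and the tests were chosen with earlier results of these data known. Any of the 39 genes could be named, and of the related lists those past the threshold or, with none, up to 4 with the smallest p.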

Additional observations from a re-analysis of the deposited data

How the results depend on the processing

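The count of the 39 genes past the threshold for fasting in KO livers, 1 by edgeR, was 4 with DESeq2 (C6, C9, Cpb2 and F11), 0 when only the compared groups were fitted, 0 without both fed KO replicate 1 and fed control replicate 3, and 0 to 3 when each library was left out in turn. With no filter it was 1, Cpb2 in place of C6. It was 0 without fasted KO replicate 3, fed KO replicate 1 or fed KO replicate 2, and 3 without fed control replicate 3. For fasting in control livers the count of 1 became 2 with DESeq2, 0 with only the compared groups, 2 without both livers, and 0 to 1 with each library left out. Averaged over genotypes the count of 4 was 2 with no filter on low counts and 2 to 4 with each library left out, with 2 without fasted control replicate 2. DESeq2 called 2 of the 39 in KO against control fed livers and 1 in the interaction, where edgeR called 0. KO against control in fasted livers and on average gave 0 under every alternative. The median log2 difference in fed livers was 0.28 to 0.55 with each library left out. The replicate block gave 2 for fasting in KO livers (C6 and F11), 1 in control livers (F11 in place of Masp1) and 4 on average. The replicate numbers were not taken as a pairing, since same-numbered libraries correlated at -0.284 to 0.184. 

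Of 1439 alternative values for single genes of the 39 (those called or with a log2 size of at least 0.4), 1399 kept direction and side of the threshold, 23 lost a call, 13 gained one and 4 changed sign. Those 4, all without both livers, were F7 and F11 at -0.01 in KO against control fed, and Fga at 0.02 and Fgg at 0.04 in the interaction. With libraries left out these ran up to 0.68 for F7 and 0.71 for F11, and down to -0.64 for Fga and -0.63 for Fgg. Of 548 such values for called related genes, 410 kept their call, 138 lost it and 0 changed sign. Ggcx within KO livers lost its call in 18 of 21 alternatives and within control livers in 16 of 21, and on average in none of 20. The cause of these changes was not tested beyond their construction. Counts of at least 473 reads per library stand behind each of the 39 genes but Cfb, so counting error is small beside the spread between mice.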
